A study of Mus musculus with 11 samples.

Results

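GABA and glutamate receptor subunit genes were measured in mouse cerebellar tumours labelled medulloblastoma. The 44 genes were taken by symbol from a count table of 38406 genes. They encode the GABA-A subunits (alpha, beta, gamma, delta, epsilon, pi, theta and rho), both GABA-B subunits, and the AMPA, kainate, NMDA, delta and metabotropic glutamate receptors. A further 3 genes of these families were left out by the rule and are not analysed here. The study set tumours of 2 models against 2 earlier Group 3 models, Group 3 being a human medulloblastoma subgroup marked by high MYC. All 11 libraries came from untreated tumours of strain CD1 with MYC as an oncogene, and the labels give no age. The constitutive MYC/Gfi1 group (n = 2) and the S100b-cell group (MYC-Gfi1 in S100b-positive cells, n = 3) also carried Gfi1. The N1ICD group (MYC-Gfi1-N1ICD in Math1-positive cells, n = 3) carried Gfi1 and N1ICD, the intracellular part of the Notch1 receptor. The constitutive MYC/Otx2 group (n = 3) carried Otx2 in place of Gfi1. The element that held expression to S100b-positive or Math1-positive cells is not named in the labels, nor is it said whether the libraries of a group came from separate animals. The p-values below therefore measure the spread between libraries, which may be technical.

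GABA-A receptors are pentameric chloride channels, most often built from alpha and beta subunits with a gamma or a delta subunit. GABA-B receptors are pairs of Gabbr1 and Gabbr2 that act through G proteins. AMPA, kainate and NMDA receptors are cation channels opened by glutamate, the metabotropic glutamate receptors act through G proteins, and the delta receptors bind cerebellins across the synapse. In the normal cerebellum, mature granule cells carry GABA-A receptors with delta subunits, NMDA receptors with Grin2c and, at their axon endings, Grm4. In bulk RNA, fewer cells of a type and less RNA per cell cannot be told apart.

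Library totals ran from 2.58 to 15.19 M counts, lowest in the N1ICD group (2.58 to 3.38 M) and highest in the S100b-cell group (12.77 to 15.19 M). Levels are given as CPM, a library's counts scaled to a common total. A single count was worth 0.349 to 0.429 CPM in an N1ICD library and 0.0647 to 0.0782 CPM in an S100b-cell library. Mitochondrially encoded genes took 5.18% to 6.00% of counts in the constitutive groups, 14.7% to 18.5% in the S100b-cell group and 23.3% to 27.6% in the N1ICD group. The labels state no batch, but the names of the columns fall into 3 styles. There is 1 style for both constitutive groups and 1 for each of the others. If these styles mark library sets, a set and a group cannot be told apart except between the constitutive groups. Myc was at 11.04 to 128 CPM in the constitutive libraries, 2.005 to 4.21 CPM in the S100b-cell libraries and 0.429 to 2.44 CPM in the N1ICD libraries. Otx2 was at 13.7 to 97.0 CPM in the MYC/Otx2 libraries, at 0 to 13.72 CPM in the N1ICD libraries and at most 2.80 CPM in the others. Gfi1 was at 0 to 0.282 CPM in the MYC/Otx2 libraries and 0.697 to 13.9 CPM in the others, and Notch1 at 0.349 to 2.44 CPM in the N1ICD libraries and at most 0.453 CPM in the others. Atoh1, the gene of Math1, was at 0 in each N1ICD library, and S100b was at 1.23 to 63.8 CPM in the S100b-cell libraries against 25.6 to 557 CPM in the MYC/Gfi1 libraries. No source used here gives the 3′ ends of the introduced constructs, so these 3′ counts do not check the labels. Within a group, libraries correlated over all genes tested with Spearman's rho of 0.808 to 0.952. MYC/Gfi1 replicates 1 and 2 (0.816) and the N1ICD libraries (0.808 to 0.907) were the least alike.

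Receptor subunit RNA was spread unevenly over the libraries, and MYC/Gfi1 replicate 2 held the most. The summed level of the 44 genes was 267 and 1993 CPM in MYC/Gfi1 replicates 1 and 2, and 156, 340 and 113 CPM in the MYC/Otx2 libraries. It was 68.5, 141 and 94.5 CPM in the S100b-cell libraries and 918, 43.9 and 84.0 CPM in the N1ICD libraries. The highest value of a gene fell in MYC/Gfi1 replicate 2 for 23 of the 44 genes, in MYC/Gfi1 replicate 1 for 8 and in N1ICD replicate 1 for 5. Of 41 genes with counts in either MYC/Gfi1 library, 31 were higher in replicate 2. Among the 33 with counts in both, 11 were more than 10-fold higher in replicate 2. N1ICD replicate 1 was high in only a few genes: 4, among them Gabbr1, Gabbr2 and Gria1, made up 95.4% of its receptor subunit counts. The heat map of 39 of the genes by library shows both patterns.

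**Figure D1:**
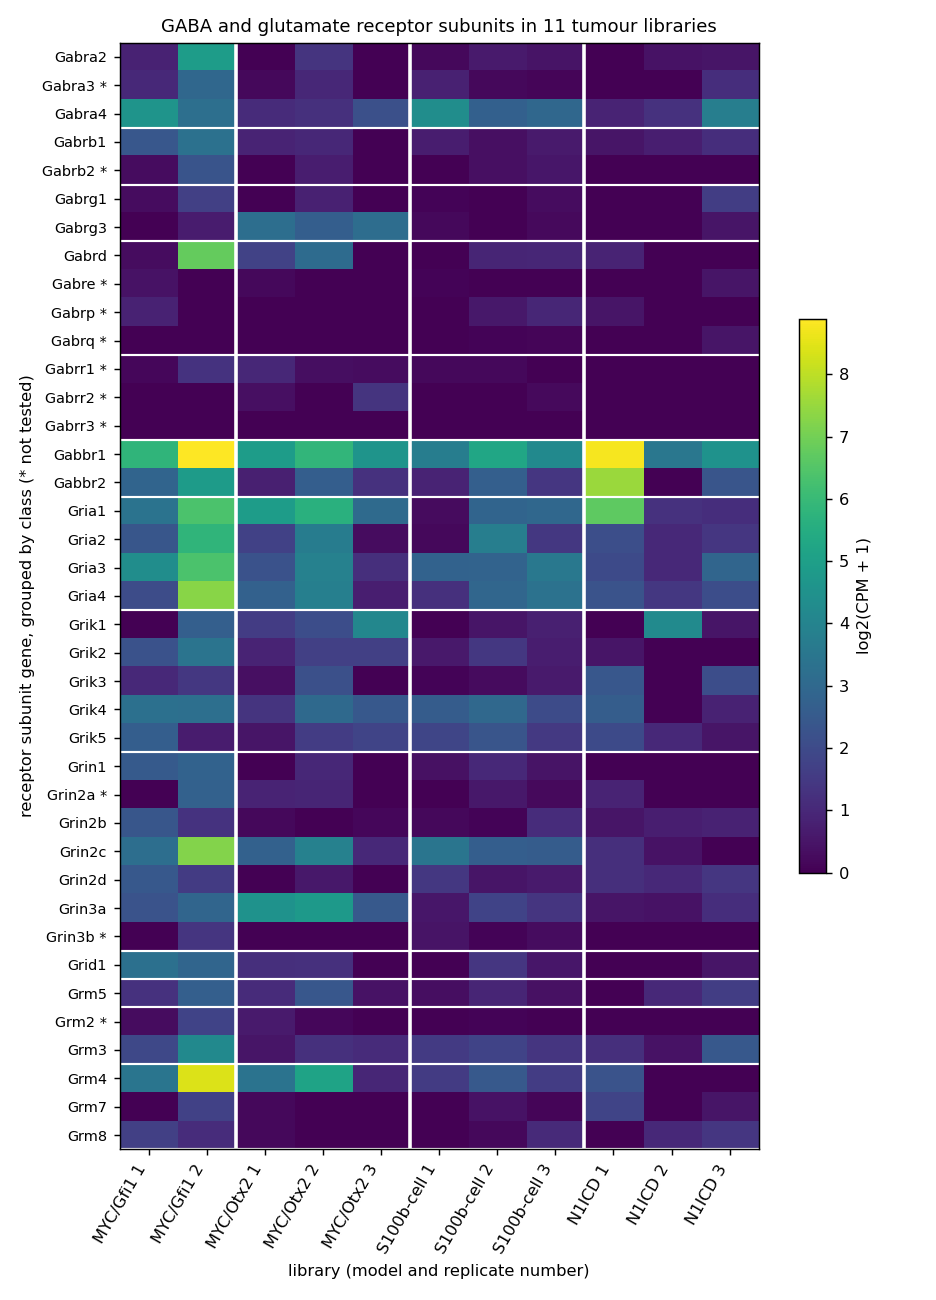
Level of 39 of the receptor subunit genes (rows, grouped by class, * marks genes not tested) in each of the 11 libraries (columns, by model and replicate), as log2(CPM + 1) on the colour scale. MYC/Gfi1 replicate 2 is bright in most classes, while N1ICD replicate 1 is bright in Gabbr1, Gabbr2 and Gria1 and dark in most others.

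The same libraries stood apart in markers of normal cerebellar cells. The summed level of 11 mature granule cell markers was 5127 CPM in MYC/Gfi1 replicate 2, against 234 CPM in replicate 1 and 18.5 to 607 CPM in the other groups. Slc17a7, the vesicular glutamate transporter of granule cells, was at 339 CPM in MYC/Gfi1 replicate 2 and at 0 in replicate 1. The sum of 10 Purkinje cell markers was 2798 CPM in MYC/Gfi1 replicate 2 and 58.4 CPM in replicate 1, although Pcp2, a defining Purkinje gene, was at 0.429 CPM or less in every library. The 10 astroglia and Bergmann glia markers summed to 5721 CPM in MYC/Gfi1 replicate 2 and 562 CPM in replicate 1. They summed to 4062 CPM in N1ICD replicate 1, and to 88.9 and 293 CPM in the other N1ICD libraries. Slc1a3, Fabp7 and Aldoc made 1402, 1058 and 1028 CPM of the sum in N1ICD replicate 1. Gfap, Slc1a2 and S100b were lower in N1ICD replicate 1 than in the others of its group. In the same library 5 choroid plexus markers reached 4698 CPM, of which Ttr made 4672 CPM, and 3.84 and 1.62 CPM in the others of that group. MYC/Gfi1 replicate 1 was at 592 CPM for this list. The part of these cells in the receptor values was not tested. The plot of summed levels sets the receptor genes beside these lists.

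**Figure D2:**
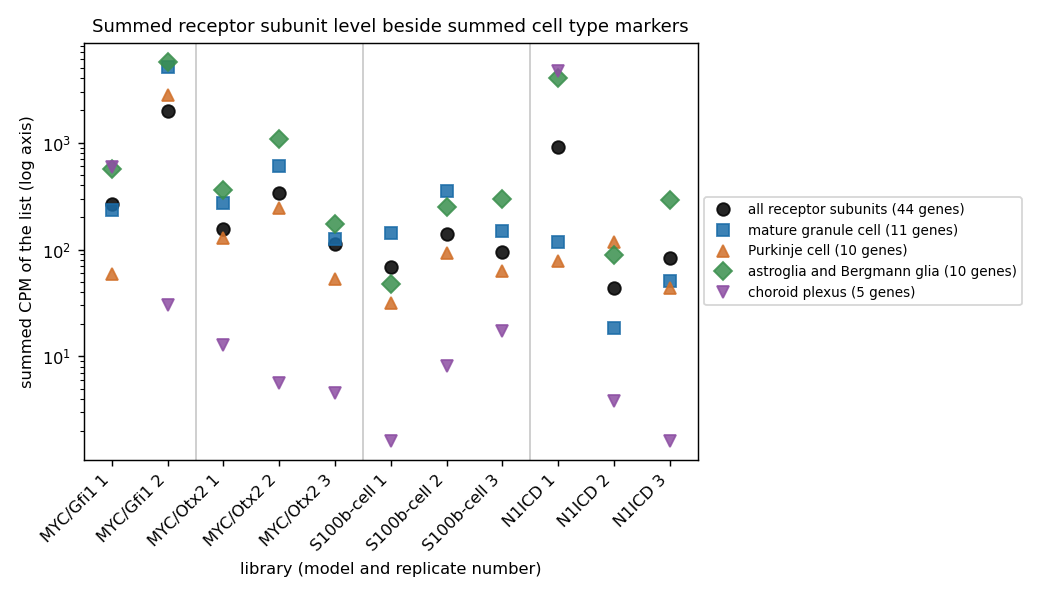
Summed CPM (vertical axis, log scale) of the 44 receptor subunit genes and of 4 marker lists in each of the 11 libraries (horizontal axis), 1 symbol per list. The receptor sum is highest at 1993 CPM in MYC/Gfi1 replicate 2 and at 918 CPM in N1ICD replicate 1, the libraries in which the astroglia and Bergmann glia sum is also highest.

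Of the 44 genes, 33 passed the low-count filter and were tested, and 8 of these were called in at least 1 of 6 comparisons by edgeR at an adjusted p under 0.05. The 11 genes not tested were Gabra3, Gabrb2, Gabre, Gabrp, Gabrq, Gabrr1, Gabrr2, Gabrr3, Grin2a, Grin3b and Grm2, whose highest values in any library ran from 0 (Gabrr3) to 6.83 CPM (Gabra3). Every call was a lower level in the first group named, and none was a higher one. The N1ICD tumours had lower levels of 6 of the 33 genes, among them Gria3, Grik2, Grin2c and Grm4, or 18.2%, when set against the MYC/Gfi1 tumours. Of all 15228 genes tested in that comparison 11.5% were called, 5.47% higher and 6.05% lower. Without MYC/Gfi1 replicate 2 the comparison called 1 of the 33 and 4.94% of all genes. The S100b-cell tumours had a lower level of 1 gene, or 3.03%, when set against the MYC/Gfi1 tumours, where 4.35% of all genes were called, 2.34% higher and 2.01% lower. That single call was kept in 3 of 11 fits that left a library out, those without an N1ICD library, and was lost in 8, with a replicate block and in the fit of these 2 groups alone. Against the MYC/Otx2 tumours, 3 genes, among them Gabrg3 and Grin3a, or 9.09%, were lower in the N1ICD tumours, with 21.8% of all genes called and 9.76% lower. The same 3 genes were lower in the S100b-cell tumours, with 17.9% of all genes called and 7.89% lower. In the last 3 comparisons the share of receptor genes called lower lies near that of all genes.

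No receptor gene was called between the N1ICD and S100b-cell tumours, where 1.21% of all genes were (0.808% higher and 0.407% lower), nor between the MYC/Otx2 and MYC/Gfi1 tumours, where 5.46% were (2.43% higher and 3.03% lower). At an unadjusted p under 0.05, edgeR gave 2 and 14 of the 33 receptor genes in these comparisons, against 2844 and 4302 of all 15228 genes. DESeq2 called 0 and 10 receptor genes, against 8.93% and 17.7% of all genes. The median log2 difference of the 33 genes against the MYC/Gfi1 tumours was -2.32 in the N1ICD tumours, -2.89 in the S100b-cell tumours and -2.94 in the MYC/Otx2 tumours, and that of all genes was -0.01, 0.01 and -0.14. These 3 comparisons share the MYC/Gfi1 libraries, and without its replicate 2 the medians were -1.29, -1.15 and -0.60. In the N1ICD tumours the median was -3.57 without MYC/Gfi1 replicate 1, -4.19 without N1ICD replicate 1 and -3.73 without N1ICD replicate 3. These fits tested 40, 32 and 31 receptor genes. The filter was applied anew in each fit that left a library out, so its median need not cover the same 33 genes. Between the N1ICD and S100b-cell tumours the median was -0.66 (all genes -0.06), and it was 0.0066 without S100b-cell replicate 2, -0.38 without S100b-cell replicate 3 and -0.99 without N1ICD replicate 3. Against the MYC/Otx2 tumours it was -0.90 in the N1ICD tumours (all genes 0.14) and -0.47 in the S100b-cell tumours (all genes 0.17), and without MYC/Otx2 replicate 2 these became 0.24 and 0.85. The first was -1.63 without N1ICD replicate 1, and the second -0.73 and -0.90 without MYC/Otx2 replicates 1 and 3 and -1.27 without S100b-cell replicate 2. Grin1 had 0 counts in the N1ICD group. With its value set to the bound that 3 counts over the group allow, the medians of the N1ICD tumours were -2.32, -0.58 and -0.85 against the MYC/Gfi1, S100b-cell and MYC/Otx2 tumours.

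The low-count filter lets a gene pass through a single group. Grin1, Gabrb1 and Grin2b were counted well only in the MYC/Gfi1 libraries, and Gabrg3 only in the MYC/Otx2 libraries. Such genes enter the medians above and the counts here through the group where they are high. Between the N1ICD and MYC/Gfi1 tumours, libraries did not overlap in 16 of the 33 genes (48.5%), each lower in the N1ICD tumours. The share of all genes in either direction was 38%. The count was 20 (60.6%) between the S100b-cell and MYC/Gfi1 tumours, each lower in the S100b-cell tumours, against 41.3% of all genes. Between the MYC/Otx2 and MYC/Gfi1 tumours, 13 were lower and 1 higher in the MYC/Otx2 tumours, or 42.4%, slightly below the 43.6% of all genes. The remaining comparisons also gave smaller shares than all genes. For the N1ICD against the S100b-cell tumours 3 were lower (9.09% against 26.1%). For the N1ICD against the MYC/Otx2 tumours 4 were lower and 2 higher (18.2% against 41.5%). For the S100b-cell against the MYC/Otx2 tumours 5 were lower and 2 higher (21.2% against 50.4%).

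Among the GABA-A genes, Gabrg3, which encodes the gamma3 subunit, was present almost only in the MYC/Otx2 tumours. The gene lies on the minus strand of chromosome 7 (chr7:56716465-57387188, GRCm38, GENCODE M21). Its promoter window is shown because each MYC/Otx2 library stood above the 8 others in this gene. The sequence, from RefSeq on GRCm38.p6, covers chr7:57387216-57387465 on the minus strand and is written 5′ to 3′ of the gene. The capitals mark a match to the core bound by RBPJ, the DNA-binding partner of N1ICD, which reads TGGGAA on the opposite strand.
Gabrg3: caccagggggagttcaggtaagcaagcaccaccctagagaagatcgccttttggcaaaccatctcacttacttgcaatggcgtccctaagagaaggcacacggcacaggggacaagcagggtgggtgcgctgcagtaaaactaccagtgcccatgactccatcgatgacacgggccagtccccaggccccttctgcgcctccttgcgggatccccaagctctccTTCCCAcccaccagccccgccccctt

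Levels of Gabrg3 were 8.34, 5.23 and 7.97 CPM in the MYC/Otx2 libraries, and 0 and 0.581 CPM in the MYC/Gfi1 libraries. They were 0.129, 0 and 0.156 CPM in the S100b-cell libraries and 0, 0 and 0.406 CPM in the N1ICD libraries. Every MYC/Otx2 library lay above every other library, and the other 3 groups overlapped. Gabrg3 passed the low-count filter through the MYC/Otx2 libraries alone. Gabrg3 fell by 6.04 ± 1.25 (SE) on the log2 scale in the S100b-cell against the MYC/Otx2 tumours (edgeR, adjusted p = 0.0117), a call kept in each fit that left a library out. In the N1ICD tumours it fell by 5.62 ± 1.43 (edgeR, adjusted p = 0.0221), with a single count in the group and a ratio of counts of 54.8-fold (95% counting interval 9.71 to 2180). That call was lost without MYC/Otx2 replicate 1 or 3 or without N1ICD replicate 1 or 2 (edgeR, adjusted p from 0.0545 to 0.0656). Against the MYC/Gfi1 tumours, which share the style of column name, Gabrg3 was 4.62 ± 1.41 higher on the log2 scale in the MYC/Otx2 tumours (edgeR, adjusted p = 0.0764) and did not pass the test. Photoreceptor markers moved with it: the summed level of 8 was 108, 39.7 and 169 CPM in the MYC/Otx2 libraries and at most 4.29 CPM elsewhere, with Sag and Crx present and Rcvrn at 0 in every library. The summed level of 5 retinal bipolar cell markers was 66.3, 84.1 and 76.7 CPM in the MYC/Otx2 libraries, 45.7 CPM in MYC/Gfi1 replicate 1 and at most 11.1 CPM in the others; of these, Vsx1 was at 55.0 to 64.5 CPM in the MYC/Otx2 libraries and at most 0.156 CPM elsewhere. Their part in the Gabrg3 difference was not tested.

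Gabrd was the highest by mean level of the GABA-A genes described here that were tested and not called. Gabrd, the delta subunit of extrasynaptic receptors, was at 0.233 and 109 CPM in the MYC/Gfi1 libraries, 2.401, 7.60 and 0 CPM in the MYC/Otx2 libraries, 0, 0.899 and 0.938 CPM in the S100b-cell libraries and 0.857, 0 and 0 CPM in the N1ICD libraries. It was thus high in 1 library of 11. Gabra4, chosen after its values were seen, was at 23.0 and 8.42 CPM in the MYC/Gfi1 libraries, 1.13, 1.37 and 3.47 CPM in the MYC/Otx2 libraries, 19.4, 5.60 and 6.73 CPM in the S100b-cell libraries and 0.857, 1.394 and 12.98 CPM in the N1ICD libraries. Its highest library was replicate 1 in the MYC/Gfi1 and S100b-cell groups and replicate 3 in the others. The S100b-cell libraries were above the MYC/Otx2 libraries, with a log2 difference of 2.396 ± 0.984 (edgeR, adjusted p = 0.114). Gabra2, Gabrb1 and Gabrg1 reached 29.3, 8.86 and 2.18 CPM, each in MYC/Gfi1 replicate 2, and at most 1.495, 1.22 and 2.03 CPM in the other 3 groups.

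**Figure D3:**
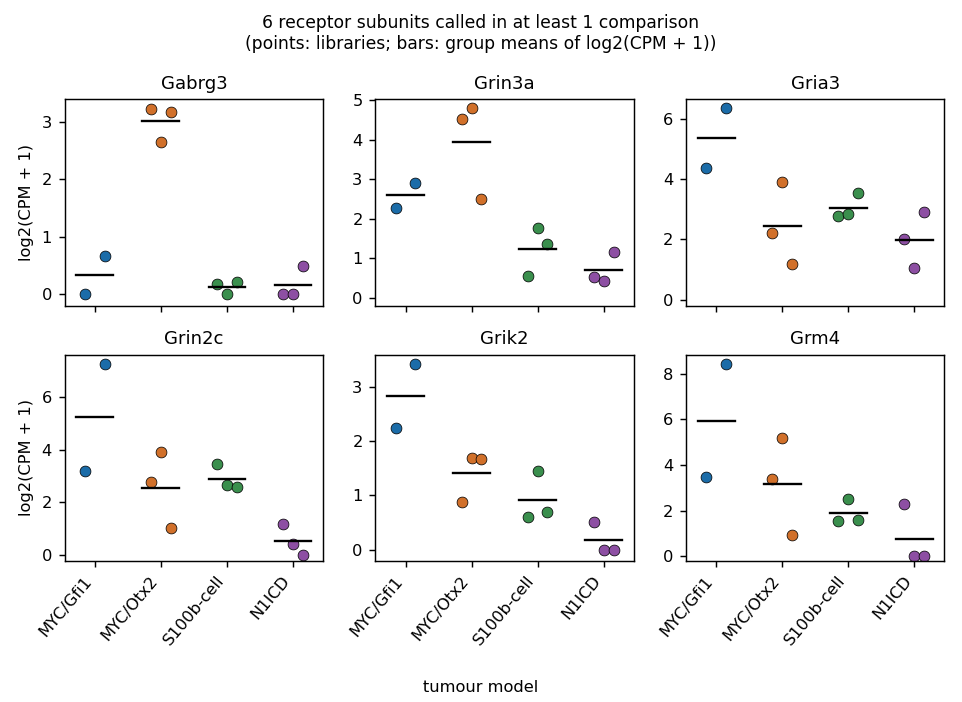
Levels of 6 receptor subunit genes called in at least 1 comparison, as log2(CPM + 1) on the vertical axis, by tumour model on the horizontal axis; points are libraries and bars are group means of the plotted values. Gabrg3 is high in the MYC/Otx2 model, Grin3a in both constitutive models, and Grin2c and Grm4 have 1 MYC/Gfi1 library far above the other.

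The GABA-B genes were high in single libraries of different models and were called in no comparison. Gabbr1, the subunit that binds GABA, was at 55.6 and 471 CPM in the MYC/Gfi1 libraries, 29.1, 56.8 and 23.5 CPM in the MYC/Otx2 libraries, 12.8, 37.4 and 17.5 CPM in the S100b-cell libraries and 435, 10.5 and 22.3 CPM in the N1ICD libraries. Gabbr2, the subunit that couples to G proteins, was at 187, 0 and 4.06 CPM in the N1ICD libraries and 6.30 and 28.5 CPM in the MYC/Gfi1 libraries. Gabbr2 was at most 5.39 CPM in the MYC/Otx2 and S100b-cell libraries. N1ICD replicate 1 was the highest library for Gabbr2 and came close to MYC/Gfi1 replicate 2 for Gabbr1, while N1ICD replicate 2 was the lowest library for both. The log2 difference of Gabbr1 between the N1ICD and MYC/Gfi1 tumours was -0.76 ± 1.31 (edgeR, adjusted p = 0.734). Without N1ICD replicate 1 it was -4.01 ± 1.02 (edgeR, adjusted p = 0.0373), and Gabbr1 was among the 6 genes called there. Without MYC/Gfi1 replicate 2 it was 1.47 ± 1.75 (edgeR, adjusted p = 0.639), so its sign depended on which library was left out.

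The AMPA genes were highest in MYC/Gfi1 replicate 2, apart from Gria1. Gria3 was at 19.6 and 82.2 CPM in the MYC/Gfi1 libraries, 3.67, 14.0 and 1.27 CPM in the MYC/Otx2 libraries, 5.89, 6.16 and 10.6 CPM in the S100b-cell libraries and 3.00, 1.05 and 6.49 CPM in the N1ICD libraries. Both MYC/Gfi1 libraries lay above all others, which overlapped. Gria3 fell by 3.86 ± 1.03 on the log2 scale in the N1ICD against the MYC/Gfi1 tumours (edgeR, adjusted p = 0.0394). Without MYC/Gfi1 replicate 2 the value was -2.49 (edgeR, adjusted p = 0.207). The call was kept without MYC/Gfi1 replicate 1 or MYC/Otx2 replicate 2 or 3, and was lost without any of the other libraries, with edgeR adjusted p from 0.0512 to 0.207.

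Gria1 was at 9.33 and 82.4 CPM in the MYC/Gfi1 libraries, 29.1, 49.2 and 7.396 CPM in the MYC/Otx2 libraries, 0.194, 6.29 and 6.88 CPM in the S100b-cell libraries and 103, 1.39 and 1.22 CPM in the N1ICD libraries. The S100b-cell libraries were lower than every constitutive library, and N1ICD replicate 1 was the highest of all. The log2 difference between the S100b-cell and MYC/Otx2 tumours was -2.68 ± 1.65 (edgeR, adjusted p = 0.277). Gria4 was at 3.15 and 156 CPM in the MYC/Gfi1 libraries and at most 13.2 CPM elsewhere. Gria2, whose subunit sets the calcium permeability of the channel, was at 4.20 and 54.6 CPM in the MYC/Gfi1 libraries and at most 12.9 CPM elsewhere.

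Of the kainate genes, Grik2 was called. Grik2, a pore-forming subunit, was at 3.73 and 9.73 CPM in the MYC/Gfi1 libraries, 0.848, 2.24 and 2.20 CPM in the MYC/Otx2 libraries, 0.518, 1.73 and 0.626 CPM in the S100b-cell libraries and 0.429, 0 and 0 CPM in the N1ICD libraries. The order of the group means was MYC/Gfi1, MYC/Otx2, S100b-cell and N1ICD, of which the middle 2 groups overlapped. In the N1ICD tumours Grik2 fell by 5.51 ± 1.24 on the log2 scale against the MYC/Gfi1 tumours (edgeR, adjusted p = 0.0227). The N1ICD group held a single count, against 99 in the MYC/Gfi1 group, a ratio of 49.1-fold (95% counting interval 8.61 to 1960). The call was lost without MYC/Gfi1 replicate 2 (edgeR, adjusted p = 0.0864) and without N1ICD replicate 2 or 3 (edgeR, adjusted p = 0.0672 and 0.0665).

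Grik4, whose subunit forms channels only with others, was even between the MYC/Gfi1 libraries at 8.74 and 8.42 CPM. It was at 1.55, 7.22 and 4.39 CPM in the MYC/Otx2 libraries, 5.05, 6.99 and 3.05 CPM in the S100b-cell libraries and 5.15, 0 and 0.812 CPM in the N1ICD libraries. Grik1 was high in single libraries, MYC/Otx2 replicate 3 at 16.4 CPM and N1ICD replicate 2 at 18.1 CPM, and at most 5.37 CPM in the others. Neither was called. Grik3 and Grik5 reached 4.29 and 5.25 CPM.

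Of the NMDA genes, Grin3a and Grin2c were called. Grin3a, a subunit that lowers calcium entry and is best known from the young brain, was at 22.0, 26.9 and 4.62 CPM in the MYC/Otx2 libraries and 3.85 and 6.54 CPM in the MYC/Gfi1 libraries. It was at 0.453, 2.42 and 1.56 CPM in the S100b-cell libraries and 0.429, 0.349 and 1.22 CPM in the N1ICD libraries. The constitutive libraries lay above all others, and the constitutive groups overlapped. Grin3a fell by 4.73 ± 0.952 on the log2 scale in the N1ICD against the MYC/Otx2 tumours (edgeR, adjusted p = 0.00862), a call kept in each of 11 fits that left a library out. In the S100b-cell tumours it fell by 3.58 ± 0.819 (edgeR, adjusted p = 0.0173). That call was lost without MYC/Otx2 replicate 1 or 2 or S100b-cell replicate 3 (edgeR, adjusted p = 0.0523, 0.0597 and 0.0618). For this difference the model cannot be told apart from a library set that the styles of column name may mark.

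Grin2c is the NMDA subunit that mature granule cells take up. It lies on chromosome 11 on the minus strand (chr11:115249169-115267243, GRCm38), and the part of its promoter window that lies before the start of the gene in both RefSeq and GENCODE (chr11:115267298-115267493, minus strand, RefSeq, GRCm38.p6) is shown as that of a called gene with no match to any of the 4 motifs listed at the end, so it has no capitals.
Grin2c: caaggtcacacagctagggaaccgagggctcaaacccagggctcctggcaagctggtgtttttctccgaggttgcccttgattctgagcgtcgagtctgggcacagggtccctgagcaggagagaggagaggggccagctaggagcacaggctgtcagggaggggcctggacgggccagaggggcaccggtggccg

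Levels of Grin2c were 8.16 and 149 CPM in the MYC/Gfi1 libraries, 5.79, 14.0 and 1.04 CPM in the MYC/Otx2 libraries, 9.84, 5.26 and 5.004 CPM in the S100b-cell libraries and 1.29, 0.349 and 0 CPM in the N1ICD libraries. The N1ICD libraries were lower than every MYC/Gfi1 and S100b-cell library, and MYC/Gfi1 replicate 1 lay within the S100b-cell range. In the N1ICD tumours Grin2c fell by 7.18 ± 1.51 on the log2 scale against the MYC/Gfi1 tumours (edgeR, adjusted p = 0.0192). Without MYC/Gfi1 replicate 2 the value was -3.92 (edgeR, adjusted p = 0.117). The call was also lost without N1ICD replicate 2 or 3 (edgeR, adjusted p = 0.0619 and 0.0583). Against the S100b-cell tumours the log2 difference was -3.63 ± 1.41 (edgeR, adjusted p = 0.21).

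Grin1, the subunit that every NMDA receptor needs, was at 4.78 and 5.96 CPM in the MYC/Gfi1 libraries. It was at 0, 0.997 and 0 CPM in the MYC/Otx2 libraries, 0.324, 1.04 and 0.391 CPM in the S100b-cell libraries and 0 in each N1ICD library. Taken against 3 counts over the group, the N1ICD tumours were at least 13.5-fold lower than the MYC/Gfi1 tumours, and the test missed the threshold (edgeR, adjusted p = 0.0641). Grin2d was at 4.43 and 1.89 CPM in the MYC/Gfi1 libraries, 0, 0.498 and 0 CPM in the MYC/Otx2 libraries and 1.29, 1.05 and 1.62 CPM in the N1ICD libraries. The N1ICD libraries were above the MYC/Otx2 libraries, with a log2 difference of 2.86 ± 1.27 (edgeR, adjusted p = 0.129). Grin1 and Grin2d overlap genes of the opposite strand within the last 1000 bases, as do, of the genes not tested, Gabrr3, Grin3b and Grm2. No source used here gives whether the counting used strand, so reads of such partners may be included. Grin2b did not exceed 4.20 CPM in any library.

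The delta receptor gene Grid1 was at 8.63 and 6.54 CPM in the MYC/Gfi1 libraries and at most 1.66 CPM elsewhere, so the MYC/Gfi1 libraries were alike in this gene and above all others. Its log2 difference between the N1ICD and MYC/Gfi1 tumours was -5.69 ± 1.99 (edgeR, adjusted p = 0.0867).

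Among the metabotropic genes, Grm4, the presynaptic receptor of granule cell axons, was called. It was at 10.02 and 342 CPM in the MYC/Gfi1 libraries, 9.32, 34.9 and 0.925 CPM in the MYC/Otx2 libraries, 1.94, 4.63 and 1.96 CPM in the S100b-cell libraries and 3.86, 0 and 0 CPM in the N1ICD libraries. MYC/Gfi1 replicate 1 lay within the MYC/Otx2 range, and replicate 2 was far above all libraries. In the N1ICD tumours Grm4 fell by 7.16 ± 1.9 on the log2 scale against the MYC/Gfi1 tumours (edgeR, adjusted p = 0.0396). Without MYC/Gfi1 replicate 2 the value was -3.02 (edgeR, adjusted p = 0.336). The call was kept without MYC/Gfi1 replicate 1, MYC/Otx2 replicate 2 or 3 or N1ICD replicate 1, and was lost without any other library, with edgeR adjusted p from 0.0503 to 0.336.

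Grm3, a group II receptor found in neurons and glia, was at 2.80 and 17.4 CPM in the MYC/Gfi1 libraries, 0.424, 1.37 and 1.16 CPM in the MYC/Otx2 libraries, 1.88, 2.49 and 1.56 CPM in the S100b-cell libraries and 1.29, 0.349 and 4.46 CPM in the N1ICD libraries. MYC/Otx2 libraries were below the S100b-cell libraries and the MYC/Gfi1 libraries in this gene, and neither difference was called. The log2 difference was 0.989 ± 0.903 in the S100b-cell against the MYC/Otx2 tumours (edgeR, adjusted p = 0.468). It was -3.33 ± 1 in the MYC/Otx2 against the MYC/Gfi1 tumours (edgeR, adjusted p = 0.0751). Grm5, Grm7 and Grm8 reached 5.37, 2.57 and 2.22 CPM.

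The 6 differences called between the N1ICD and MYC/Gfi1 tumours rested on MYC/Gfi1 replicate 2 to differing degrees. Without that library 1 receptor gene was called, and Gria3, Grik2, Grin2c and Grm4 were not. Without MYC/Gfi1 replicate 1 there were 8, of which 5 were among the 6. That fit tested 40 receptor genes, and it also called a larger share of all genes than the full fit did. Without N1ICD replicate 1 there were 6 of 32 tested, of which 4 were among the 6, with 11.9% of all genes called. Without N1ICD replicate 2 or 3 there was 1, of 33 and 31 tested, with 5.28% and 5.86% of all genes called. Leaving out both MYC/Gfi1 replicate 2 and N1ICD replicate 1, chosen after the data were seen, also gave 1. Of the mature granule cell markers, 5 of 10 tested fell in the N1ICD against the MYC/Gfi1 tumours and none rose, with a median log2 difference of -6.40. Of the Purkinje cell markers 3 of 9 fell and none rose. Of all genes tested, 6.05% were called lower and 5.47% higher. Other lists moved too: microglia markers fell in 4 of 8, and astroglia and Bergmann glia markers in 1 of 10. Oligodendrocyte lineage markers fell in 3 of 10 and rose in 1, and pericyte and vascular smooth muscle markers rose in 6 of 8. The part of any of these cells in the receptor calls was not tested. The plot of log2 differences with and without MYC/Gfi1 replicate 2 shows how far each gene moved. Grid1, not called, went from -5.69 to -5.89, and Grik2 from -5.51 to -4.67. Gabrd, not called, changed sign, from -7.60 to 0.18.

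**Figure D4:**
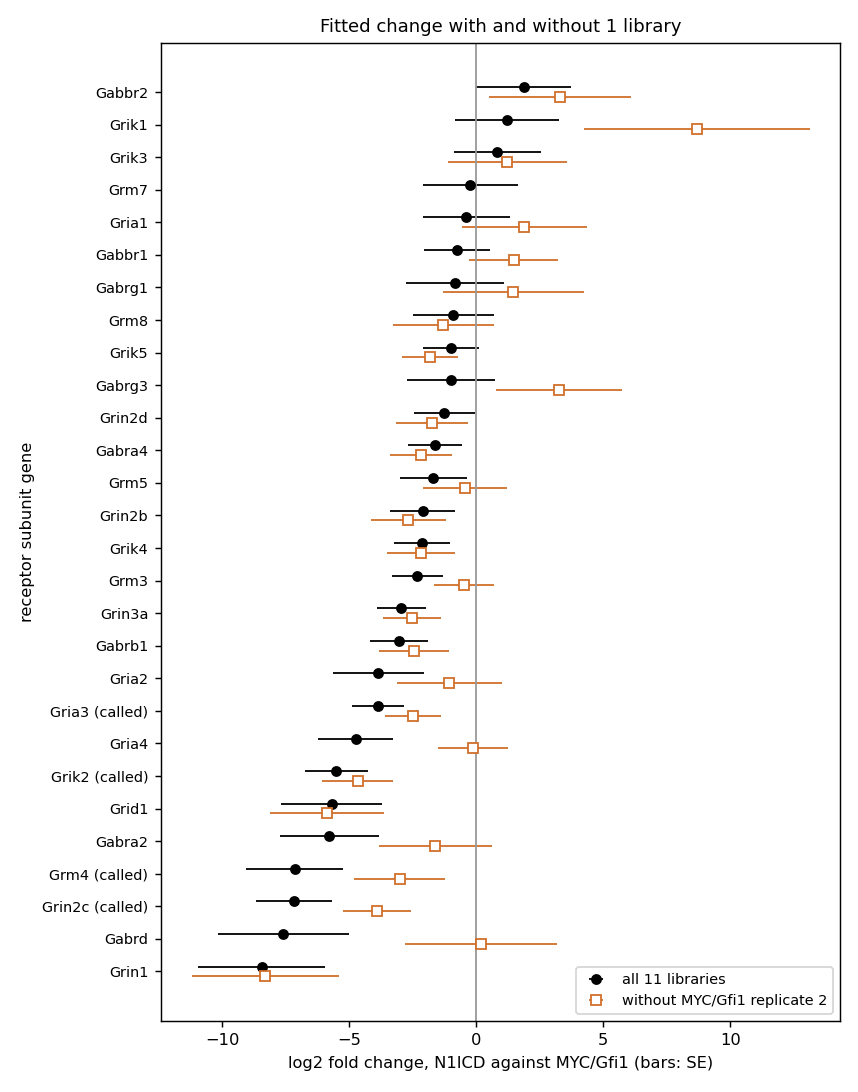
Log2 fold change of 28 tested receptor subunit genes in the N1ICD against the MYC/Gfi1 tumours (horizontal axis, bars show the SE) for each gene (vertical axis), from all 11 libraries (filled circles) and without MYC/Gfi1 replicate 2 (open squares, where the gene was still tested). Grid1 stays near its value, whereas Grin2c and Grm4 move toward 0.

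Genes that make, carry or anchor around these receptors were read from 8 lists with 83 entries tested. Set against the MYC/Gfi1 tumours, the N1ICD tumours had 1 of these higher and 10 lower, and the counts were 0 and 3 in the S100b-cell and 0 and 6 in the MYC/Otx2 tumours. The counts were 1 and 0 between the N1ICD and S100b-cell tumours, 6 and 4 between the N1ICD and MYC/Otx2 tumours, and 6 and 2 between the S100b-cell and MYC/Otx2 tumours. In the order of these 6 comparisons, 1.2%, 0%, 0%, 1.2%, 7.23% and 7.23% of the entries were higher, against 5.47%, 2.34%, 2.43%, 0.808%, 12% and 10% of all genes. Lower were 12%, 3.61%, 7.23%, 0%, 4.82% and 2.41%, against 6.05%, 2.01%, 3.03%, 0.407%, 9.76% and 7.89%. Against the MYC/Otx2 tumours both shares lay below those of all genes.

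On the GABA side, the list of receptor scaffolds and partners (10 of 12 tested) held the change with the least spread. Gphn encodes gephyrin, the scaffold under inhibitory synapses that also serves in molybdenum cofactor synthesis in all tissues. It was at 38.2, 57.9 and 55.6 CPM in the N1ICD libraries and at 11.8 to 19.5 CPM in the 8 others. Gphn rose by 2.09 ± 0.312 on the log2 scale against the MYC/Gfi1 tumours (edgeR, adjusted p = 0.00639), by 1.59 ± 0.263 against the S100b-cell tumours (edgeR, adjusted p = 0.0251) and by 1.97 ± 0.267 against the MYC/Otx2 tumours (edgeR, adjusted p = 0.0017). It was the only gene of the list called higher in any comparison. Kctd8, an auxiliary subunit of GABA-B receptors, had 0 counts in each N1ICD library and was at 7.63, 11.1 and 9.59 CPM in the MYC/Otx2 libraries, at least 24.3-fold lower against 3 counts over the group (edgeR, adjusted p = 0.0083). Against the MYC/Gfi1 libraries, at 1.28 and 4.79 CPM, it was at least 7.27-fold lower (edgeR, adjusted p = 0.0356). Kctd8 also fell in the S100b-cell against the MYC/Otx2 tumours, by 3.70 ± 0.9 (edgeR, adjusted p = 0.0282). Gabarapl2, a relative of the GABA-A receptor associated protein, fell by 1.41 ± 0.358 in the MYC/Otx2 against the MYC/Gfi1 tumours (edgeR, adjusted p = 0.0498), and Gabarapl1, not called, was at 30.0 to 256 CPM.

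Of 8 genes of GABA synthesis, transport and breakdown, Slc6a13 was called. This plasma membrane GABA carrier, known from the meninges and liver, was at 148 and 30.4 CPM in the MYC/Gfi1 libraries, 0.848, 1.99 and 1.16 CPM in the MYC/Otx2 libraries, 33.2, 8.64 and 67.7 CPM in the S100b-cell libraries and 1.29, 6.28 and 5.28 CPM in the N1ICD libraries. Slc6a13 fell by 6.04 ± 1.01 on the log2 scale in the MYC/Otx2 against the MYC/Gfi1 tumours (edgeR, adjusted p = 0.0162) and fell by 4.36 ± 0.953 in the N1ICD tumours (edgeR, adjusted p = 0.0211), and was 4.76 ± 0.933 higher in the S100b-cell than in the MYC/Otx2 tumours (edgeR, adjusted p = 0.00974). Slc32a1, the vesicular GABA transporter and the highest gene not called, was at 4.20 and 157 CPM in the MYC/Gfi1 libraries and at most 25.7 CPM elsewhere. Of 5 chloride transporters, Slc12a4 was higher in both newer models when set against the MYC/Otx2 tumours, the N1ICD tumours (1.90 ± 0.511, edgeR, adjusted p = 0.0268) and the S100b-cell tumours (1.87 ± 0.504, edgeR, adjusted p = 0.0318). Slc12a2, the chloride importer of immature neurons and other cells, was at 72.6 to 259 CPM and was not called.

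On the glutamate side, 11 genes of release, uptake and metabolism held 2 called. Slc38a1, a glutamine carrier, was at 168 and 99.6 CPM in the MYC/Gfi1 libraries, 4.66, 36.4 and 18.3 CPM in the MYC/Otx2 libraries, 121, 89.8 and 58.4 CPM in the S100b-cell libraries and 156, 144 and 158 CPM in the N1ICD libraries. The MYC/Otx2 libraries were below all others, and Slc38a1 fell by 2.76 ± 0.637 there against the MYC/Gfi1 tumours (edgeR, adjusted p = 0.0404). It was 2.95 ± 0.609 higher in the N1ICD tumours (edgeR, adjusted p = 0.0099) and 2.18 ± 0.59 higher in the S100b-cell tumours (edgeR, adjusted p = 0.0324) when set against the MYC/Otx2 tumours. Slc1a2, the main glutamate uptake carrier of astrocytes, was at 46.3 to 181 CPM in the constitutive libraries and 0.518 to 14.6 CPM in the others, with no overlap. It fell in the N1ICD tumours by 3.73 ± 0.999 against the MYC/Gfi1 tumours (edgeR, adjusted p = 0.0407) and fell by 2.97 ± 0.931 against the MYC/Otx2 tumours (edgeR, adjusted p = 0.0462). In the S100b-cell tumours it fell by 3.27 ± 0.919 against the MYC/Otx2 tumours (edgeR, adjusted p = 0.0368). Slc1a2 also stands in the list of astroglia markers.

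AMPA and kainate auxiliary subunits (10 of 13 tested) held 1 called gene, Cacng7. Cacng7 was at 2.91 and 67.3 CPM in the MYC/Gfi1 libraries and at most 2.87 CPM elsewhere, and 1 of 11 libraries was far above the rest. Its log2 difference against the MYC/Gfi1 tumours was -6.99 ± 1.65 in the N1ICD tumours (edgeR, adjusted p = 0.0273) and -6.47 ± 1.44 in the S100b-cell tumours (edgeR, adjusted p = 0.0373). Cacng4, the highest not called, was at 94.3 CPM in N1ICD replicate 1 and at most 7.58 CPM elsewhere. Of the excitatory scaffold genes (16 of 20 tested), Camk2b, a kinase of the postsynaptic density, was at 73.7 and 273 CPM in the MYC/Gfi1 libraries and 2.66 to 25.8 CPM in the others. Its log2 difference against the MYC/Gfi1 tumours was -5.20 ± 0.911 in the N1ICD tumours (edgeR, adjusted p = 0.0109), -3.61 ± 0.829 in the S100b-cell tumours (edgeR, adjusted p = 0.0411) and -3.73 ± 0.835 in the MYC/Otx2 tumours (edgeR, adjusted p = 0.0374). Dlg4, which encodes PSD-95, fell by 3.07 ± 0.767 in the MYC/Otx2 against the MYC/Gfi1 tumours (edgeR, adjusted p = 0.0481). Grip2, which binds AMPA receptors, rose by 6.33 ± 1.71 in the N1ICD against the MYC/Otx2 tumours (edgeR, adjusted p = 0.0278), with 12.9, 103.5 and 14.2 CPM in the N1ICD libraries. Dlgap1, not called, was at 507 CPM in MYC/Gfi1 replicate 2 and at most 43.8 CPM elsewhere.

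Secreted and trans-synaptic partners (11 of 14 tested) fell in the N1ICD against the MYC/Gfi1 tumours in 5 genes (Cbln1, Nlgn1, Nptx1, Nptxr and Nrxn2), with a median log2 difference of -4.53 for the list and -0.01 for all genes; Cbln1 and Cbln3 also stand in the list of granule cell markers. Nptx1, a pentraxin that gathers AMPA receptors, was at 57.1 and 679 CPM in the MYC/Gfi1 libraries, 139, 152 and 116 CPM in the MYC/Otx2 libraries, 81.9, 10.03 and 15.1 CPM in the S100b-cell libraries and 3.00, 0.697 and 2.03 CPM in the N1ICD libraries. The N1ICD libraries were lower than all others. Nptx1 fell by 7.62 ± 1.28 against the MYC/Gfi1 tumours (edgeR, adjusted p = 0.00945) and fell by 6.17 ± 1.2 against the MYC/Otx2 tumours (edgeR, adjusted p = 0.00776). Nlgn1, which binds neurexins from the postsynaptic side, fell by 4.37 ± 0.771 (edgeR, adjusted p = 0.0108). Nptxr, the receptor of the pentraxins, fell in both the N1ICD tumours (-6.57 ± 1.42, edgeR, adjusted p = 0.0206) and the S100b-cell tumours (-6.30 ± 1.36, edgeR, adjusted p = 0.0353), with 37.5 and 774 CPM in the MYC/Gfi1 libraries. Cbln3, not called, was at 2.10 and 1159 CPM there.

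Of 12 genes of metabotropic G-protein signalling, Gnai1, Gnai2 and Rgs4 were called. Gnai1, which like Gnai2 encodes a G-protein alpha subunit that inhibits adenylyl cyclase, was at 50.01 and 25.0 CPM in the MYC/Gfi1 libraries, 0.565, 4.48 and 2.66 CPM in the MYC/Otx2 libraries, 69.8, 54.7 and 46.9 CPM in the S100b-cell libraries and 3.86, 10.1 and 10.1 CPM in the N1ICD libraries. It was 4.46 ± 0.678 higher on the log2 scale in the S100b-cell than in the MYC/Otx2 tumours (edgeR, adjusted p = 0.00333) and fell by 3.85 ± 0.689 in the MYC/Otx2 against the MYC/Gfi1 tumours (edgeR, adjusted p = 0.0189). Gnai2 exceeded its MYC/Otx2 level in the N1ICD tumours (log2 difference 2.15 ± 0.373, edgeR, adjusted p = 0.00465) and the S100b-cell tumours (1.38 ± 0.364, edgeR, adjusted p = 0.0293). Rgs4, which speeds the shut-off of G proteins and is also a pericyte gene, rose by 4.51 ± 1.07 in the N1ICD against the MYC/Otx2 tumours (edgeR, adjusted p = 0.0174), with 13.7, 429 and 168 CPM in the N1ICD libraries. Of 8 pericyte and vascular smooth muscle markers all 8 rose in the same comparison, with sums of 286, 6779 and 2778 CPM in those libraries, and their part in the Rgs4 value was not tested. Gna11, not called, was at 45.0 to 99.1 CPM.

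Promoter sequence was available for 29 of the 44 receptor genes (36 windows of 250 bases before a start site, RefSeq, GRCm38.p6). Both strands were searched for the cores of the factors that the models carry. CACGTG, the E-box of MYC and MAX, was in 1 of the 36 windows (Grin1) and in 6.02% of 32851 windows of all genes. GGATTA, a core of OTX and CRX, was in 2 (Gabra2 and Gabrr2) and in 6.25% of all. AATCAC, a core of GFI1, was in 4 windows of 3 genes (Gabrg1, Grin3b and Grm8) and in 9.14% of all. TGGGAA, the core of RBPJ, was in 11 windows of 10 genes (Gabrb2, Gabrg3, Gabrq, Gabrr2, Gabrr3, Grik3, Grm2, Grm3, Grm7 and Grm8) and in 21.6% of all. A match to such short letters describes the window and no binding site. The receptor windows had a median GC content of 60.8% and 9 CpG, against 52.4% and 6 over all windows.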

How the data were processed

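Total RNA of 11 frozen tumour samples was made into 3′ libraries (QuantSeq, forward kit, with molecular identifiers), per the labels' protocols. The authors deposited raw counts per gene symbol. STAR 2.4.1d, HTSeq 0.6.1 and build mm10 are named in the submitters' processing notes. Which annotation was counted, whether strand was used and whether identifiers were collapsed is not stated in these sources, so counting intervals cover counting error only. A 3′ count is not divided by gene length, and each gene's level is compared across libraries only. Groups and columns were taken from the sample titles and descriptions.

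Genes were tested with edgeR 4.0.16 (R 4.3.3; TMM, filterByExpr by group, glmQLFit and glmQLFTest, robust) in 1 fit of all 11 libraries, which pools the spread over the 4 groups, with two-sided p-values, Benjamini-Hochberg adjustment across 15228 tested genes and calls at 0.05. CPM values use the TMM-scaled totals of these genes. The SE is the log2 fold change over the square root of F. Alternatives were DESeq2 1.42.0, RLE scaling, no filter, each pair of groups alone, a replicate block and leaving out each library.

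Some genes of the set and of the lists are counted but not reported here by name or value. The members and the lists were chosen with earlier results of these data known. Of the others, values are given for every member called, the 2 highest not called in each class and, from each list of related genes, up to 3 called by the smallest p and the highest not called; the rest are given by range, or are said to be chosen after their values were seen. Positions come from GENCODE M21 (GRCm38).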

Additional observations from a re-analysis of the deposited data

How the results depend on the processing

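The number of receptor genes called was 6, 1, 0, 0, 3 and 3 in the N1ICD and S100b-cell against the MYC/Gfi1, N1ICD against the S100b-cell, MYC/Otx2 against the MYC/Gfi1, and N1ICD and S100b-cell against the MYC/Otx2 tumours. Of all genes, 11.5%, 4.35%, 1.21%, 5.46%, 21.8% and 17.9% were called in the same order. DESeq2 gave 14, 9, 0, 10, 5 and 4 receptor genes, and 22.1%, 15.1%, 8.93%, 17.7%, 30.6% and 28.4% of all genes. Each pair of groups fitted alone gave 0, 0, 0, 0, 3 and 5, and 0.122%, 0%, 0.636%, 2.71%, 26.7% and 33.9% of all genes. These pair fits tested 21, 31, 16, 30, 16 and 22 receptor genes. RLE scaling gave the same counts as TMM. With no filter the count was 4 in the first comparison and the same in the others. The shares of all genes without the filter were 5.19%, 1.88%, 0.847%, 2.92%, 10.8% and 9.06%. A replicate block gave 1, 0, 0, 0, 3 and 3, and 5.18%, 0.67%, 0.387%, 1.37%, 14.5% and 12.5% of all genes. The replicate numbers were not taken to pair libraries, since deviations of 15 same-numbered pairs correlated at -0.169 to 0.187 and 3 exceeded 0.1. Leaving out each library in turn gave 1 to 8, 0 to 5, 0 to 0, 0 to 5, 2 to 4 and 2 to 4. Leaving out MYC/Gfi1 replicate 2 and N1ICD replicate 1 together, chosen after seeing the data, gave 1, 1, 0, 0, 6 and 3. Where 1 MYC/Gfi1 library was left, it was assumed to vary like the other groups. The share of all genes called and the number of receptor genes tested also changed with the library left out. No receptor gene called with all 11 libraries changed direction under any of these settings, and the causes of the changes in count were not tested. Depth limits the N1ICD group most, where 3 counts over the group were worth 0.391 CPM.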
